A study of Mus musculus with 19 samples.

Results

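DNA replication and mitosis genes were followed as 41 rows of an expression table of 21086 mouse genes, made by sequencing polyadenylated RNA from 19 lymphomas. The 41 were chosen by symbol, 21 that license, open and copy DNA and 20 that condense, align and separate chromosomes. All mice carried Eμ-Myc, a transgene whose immunoglobulin enhancer expresses the Myc oncogene in B lineage cells. Tumours were wild type for Bptf (Bptf+/+) or heterozygous for its deletion (Bptf+/Δ), and each was classed as early or late by its onset. There were 6 early wild-type tumours (WT_early, onset at 9 to 17 weeks), 5 late wild-type tumours (WT_late, 28 to 76 weeks), 4 early heterozygous tumours (HET_early, 8 to 13 weeks) and 4 late heterozygous tumours (HET_late, 30 to 66 weeks). Bptf encodes a subunit of the nucleosome remodelling factor NURF. Neither the deleted exons nor the cells that carry the deletion were stated in the sources used here. Late tumours arose in older mice, so onset and age cannot be told apart.

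Replication begins at origins that the origin recognition complex, Cdc6 and Cdt1 license by loading the MCM helicase. Cdc45 and the GINS complex then switch the helicase on, and primase, polymerases and the PCNA clamp copy the opened strands from nucleotides that ribonucleotide reductase and thymidylate synthase supply. In mitosis, Cdk1 with cyclin B, the Aurora and Polo kinases, motor proteins and kinetochore proteins attach chromosomes to the spindle, and Cdc20 triggers their separation. E2F factors are known to act on replication promoters, and the cell cycle genes homology region (CHR), often with CCAAT boxes, is known from mitotic promoters.

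The promoters of 35 members (18 replication, 17 mitotic) were found among RefSeq promoters of GRCm38.p6, which run from 250 bases before to 50 bases after the start site. Gins1, Gins2, Mcm4, Aurkb, Kif20a and Tpx2 had no entry. Windows were searched on both strands for the E2F words TTTCCCGC, TTTGGCGC, TTTCGCGC and TTTGCCGC, for the CHR words TTTGAA and TTCGAA, for CCAAT and for the MYC E-box CACGTG. An E2F word stood in 8 of 18 replication promoters (44.4%), in 1 of 17 mitotic promoters (5.88%, Cdk1) and in 2.6% of the 27025 genes with a promoter. A CHR word stood in 4 of 18 replication promoters (22.2%), in 13 of 17 mitotic promoters (76.5%) and in 21.7% of all genes. CCAAT was held by 72.2% of replication, 82.4% of mitotic and 41.1% of all promoters. The E-box was held by Tyms and Fen1 (11.1% of replication promoters), by 0 of 17 mitotic promoters and by 8.09% of all genes. A match describes letters and is not a binding site, 1 pair of words of different motifs overlapped, and 2 pairs of E2F words did, in Mcm5 and Mcm6. Promoters were also found for 36 of 44 replication genes and 54 of 61 mitotic genes that are not members. Their shares were 33.3% and 14.8% for E2F, 19.4% and 74.1% for CHR, 47.2% and 66.7% for CCAAT, and 16.7% and 7.41% for the E-box.

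The 160 bases before the start site are shown for 6 members, to set the E2F words of replication promoters beside the CHR words of mitotic promoters. Start sites are those of the RefSeq promoters. In the gene annotation GENCODE M21, Cdc6, Orc1, Cdk1 and Cdc20 begin upstream of these starts. The Cdc6 window therefore lies inside the annotated gene, and those of Orc1, Cdk1 and Cdc20 run into it. Capitals mark E2F, CHR and CCAAT words of either strand, and each sequence runs 5′ to 3′ on the strand of its gene. Mcm6 (minus strand, chr1:128359706-128359865) is a helicase subunit, Cdc6 (plus strand, chr11:98907991-98908150) loads the helicase and Orc1 (plus strand, chr4:108579294-108579453) is the largest subunit of the origin recognition complex. Cdk1 (minus strand, chr10:69352913-69353072) is the mitotic kinase, Cdc20 (minus strand, chr4:118437344-118437503) activates the anaphase-promoting complex and Top2a (minus strand, chr11:99024190-99024349) untangles sister chromosomes.
Mcm6: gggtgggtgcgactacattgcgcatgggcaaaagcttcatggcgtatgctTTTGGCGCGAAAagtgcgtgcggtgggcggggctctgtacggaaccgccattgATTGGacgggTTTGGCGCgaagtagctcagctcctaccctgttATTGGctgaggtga
Cdc6: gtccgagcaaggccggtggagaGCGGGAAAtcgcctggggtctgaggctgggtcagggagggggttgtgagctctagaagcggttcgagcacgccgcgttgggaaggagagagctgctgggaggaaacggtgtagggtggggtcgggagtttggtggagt
Orc1: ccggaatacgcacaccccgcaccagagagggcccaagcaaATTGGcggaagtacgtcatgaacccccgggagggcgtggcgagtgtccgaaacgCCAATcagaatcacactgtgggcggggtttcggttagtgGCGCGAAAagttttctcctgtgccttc
Cdk1: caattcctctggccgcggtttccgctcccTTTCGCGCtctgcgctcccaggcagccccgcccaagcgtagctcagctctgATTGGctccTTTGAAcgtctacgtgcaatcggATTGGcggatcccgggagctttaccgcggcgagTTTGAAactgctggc
Cdc20: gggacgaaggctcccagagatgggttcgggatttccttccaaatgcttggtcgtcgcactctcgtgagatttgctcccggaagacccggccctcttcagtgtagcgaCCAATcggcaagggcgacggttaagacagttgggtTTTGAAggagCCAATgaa
Top2a: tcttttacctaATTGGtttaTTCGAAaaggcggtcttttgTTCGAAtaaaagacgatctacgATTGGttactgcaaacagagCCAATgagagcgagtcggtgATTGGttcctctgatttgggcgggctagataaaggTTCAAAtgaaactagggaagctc
Counting -1 as the base before the start, E2F words began at -110, -106 and -47 in Mcm6, at -138 in Cdc6 and at -27 in Orc1. The words at -110 and -106 overlap. The CHR words nearest the start began at -15 in Cdk1, at -18 in Cdc20 and at -23 in Top2a. Cdk1 carried both kinds, with its E2F word at -131.

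Libraries held 8297856 to 12497732 reads, recovered from the deposited values, and Eef1a1, a translation elongation factor, led 16 of them. The library HET_early_2 went against its lymphoma label and was led by the cartilage collagen gene Col2a1 (4.36% of reads). Its summed level of 15 B cell markers was 1814, against 21286 to 55437 in the other 18 libraries. It was the lowest library for 11 of the 15, none of which was at 0, and they stood 3.51-fold to 149-fold below the median of the others. Its sum of 14 stromal markers was 1107390 (median of the others 16841, highest 34771). Its sum of 9 cartilage and muscle markers was 997945 (median 76.5, highest 10926), and that of 13 endothelial markers 10580 (median 2975, highest 5881). Its sum of 16 macrophage markers, 38846, was above the median of the others (12838) but within their range (6636 to 42972). Its sum of 16 T cell markers, 1695, was below the median of the others (2787) and within their range (289 to 9395). Results are therefore given with all 19 tumours and without HET_early_2. Bptf itself averaged 2041 ± 317 in the 6 WT_early and 1445 ± 123 in the 4 HET_early tumours, and 2192 ± 342 in the 5 WT_late and 953 ± 511 in the 4 HET_late tumours (SD).

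All 41 members were expressed. Values are normalised read counts, and levels of different genes are compared only per kilobase of the principal transcript in GENCODE M21. Pcna, the sliding clamp of the replication fork, was the highest of the 41 at 3257 ± 922 per kilobase (SD over 19 tumours). Mcm6 (1525 ± 395) and Top2a (1447 ± 455) followed and differed by less than their spread. The 6 helicase genes Mcm2 to Mcm7 lay between 691 (Mcm4) and 1525 (Mcm6) per kilobase. The lowest were Orc1 at 55.6 ± 22.6 and Fen1, the flap endonuclease of lagging strand synthesis, at 21.9 ± 7.06. Fen1, Cdc20, Cdc45, Cdt1, Gins2, Kif20a, Mcm7, Orc1 and Rfc4 overlap other genes, and since the strand setting of the counting was not stated, their levels are uncertain. Levels of Pcna, Ccnb1, Ccnb2 and Tyms are uncertain for another reason, since these genes have annotated pseudogenes.

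**Figure D1:**
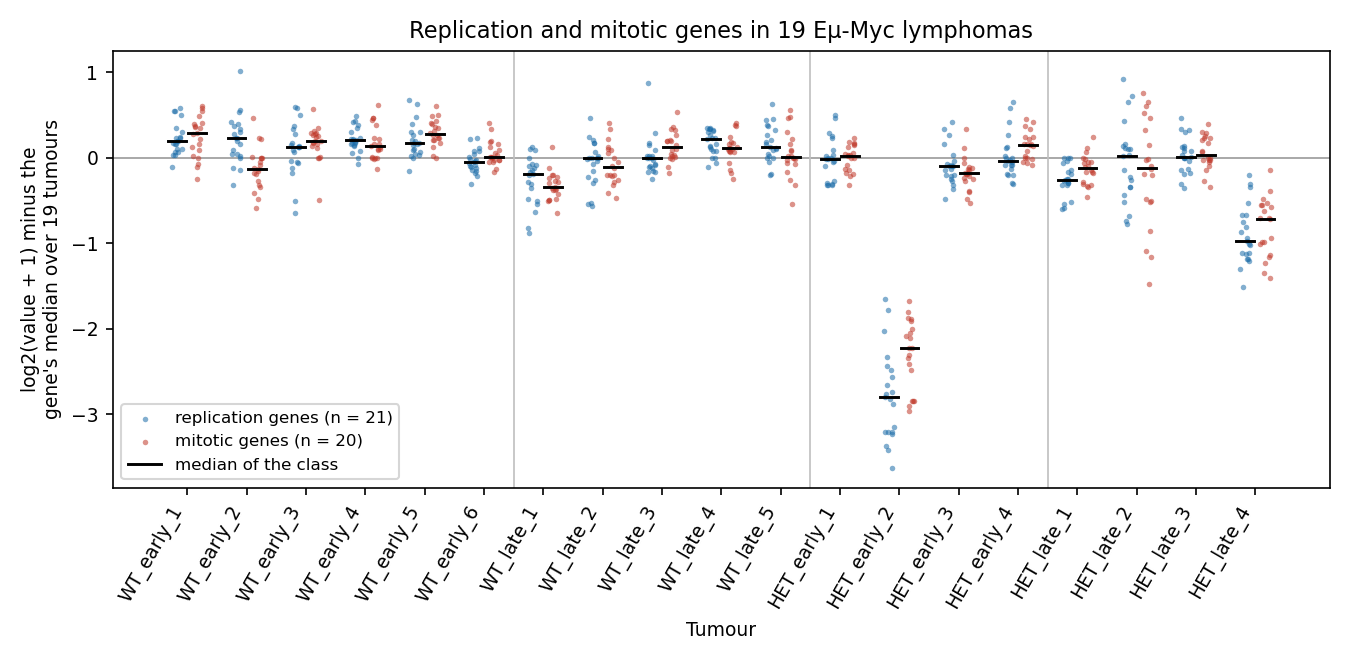
Log2(value + 1) of each replication gene (blue, n = 21) and each mitotic gene (red, n = 20) minus its median over the 19 tumours, for every tumour. Short black lines are class medians, which sit at -2.80 and -2.22 in HET_early_2, at -0.98 and -0.71 in HET_late_4 and between -0.35 and 0.28 in the other 17 tumours.

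HET_early_2 had the lowest value of the 19 tumours for all 41 members, whereas 30.7% of the 9454 genes with a mean of at least 100 had their lowest value there. The median member stood 5.68-fold below the median of the other 18 tumours, against 1.16-fold for those 9454 genes. In a bulk sample, fewer cells of a type and less RNA per cell cannot be told apart. The B cell, stromal, cartilage, endothelial and macrophage markers given above moved with this difference, and their part in it was not tested.

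Replication members stood further below the other tumours than mitotic members in HET_early_2, with medians of 7.07-fold (range 3.47 to 13.0) and 4.70-fold (3.24 to 7.90). The 44 replication and 61 mitotic genes that are not members had medians of 4.66-fold and 4.73-fold there, without such a gap. The gap therefore describes the chosen members and not the 2 pathways. The origin licensing genes Cdc6, Cdt1 and Orc1 had the largest median of the 10 roles, 11.2-fold (range 4.195 to 11.4). Orc1 had a value of only 14.6 in HET_early_2. Roles hold 2 to 7 genes, and the range of helicase activation (3.47 to 13.0) spans that of licensing. Genes of helicase activation (Cdc45, Gins1, Gins2 and Mcm10) followed at 8.09-fold, the MCM helicase at 7.29-fold and fork synthesis at 7.07-fold. Nucleotide supply (Rrm1, Rrm2 and Tyms) stood at 5.47-fold. Among mitotic roles, Mki67 and Top2a, which shape mitotic chromosomes, stood at 7.46-fold. Checkpoint genes stood at 5.39-fold, spindle genes at 5.15-fold, mitotic kinases and cyclins at 4.47-fold and centromere and kinetochore genes at 4.27-fold. Replication genes with an E2F word had a median of 8.17-fold (n = 8) and those without one 6.67-fold (n = 10), with overlapping ranges (4.195 to 11.4 and 3.49 to 13.0). Mitotic genes with a CHR word had 4.47-fold (n = 13) and those without one 4.70-fold (n = 4).

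Single members show the size of the gap. Mcm10, which helps to activate the helicase, had a value of 63.8 in HET_early_2 and 367 in the next lowest tumour, HET_late_4. Cdk1, with the smallest fold of the 41 (3.24), stood at 488 and 952 in the same tumours.

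HET_late_4 was the lowest of the remaining 18 tumours for 33 of the 41 members, where 10.4% of the 9454 genes had their lowest value in it. Replication members stood 1.99-fold and mitotic members 1.69-fold below the median of the other 17 tumours. The replication and mitotic genes that are not members both had medians of 1.68-fold. Its B cell marker sum of 27403 was in the lower part of the range without HET_early_2 (21286 to 55437, median 45968). Against medians of the same 18 tumours, its macrophage (30077 against 12838) and T cell sums (3755 against 2787) were higher. Its stromal (11689 against 16841) and endothelial sums (2441 against 2975) were lower. The part of these markers in its low values was not tested. Igha, an immunoglobulin heavy chain gene, led its reads.

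**Figure D2:**
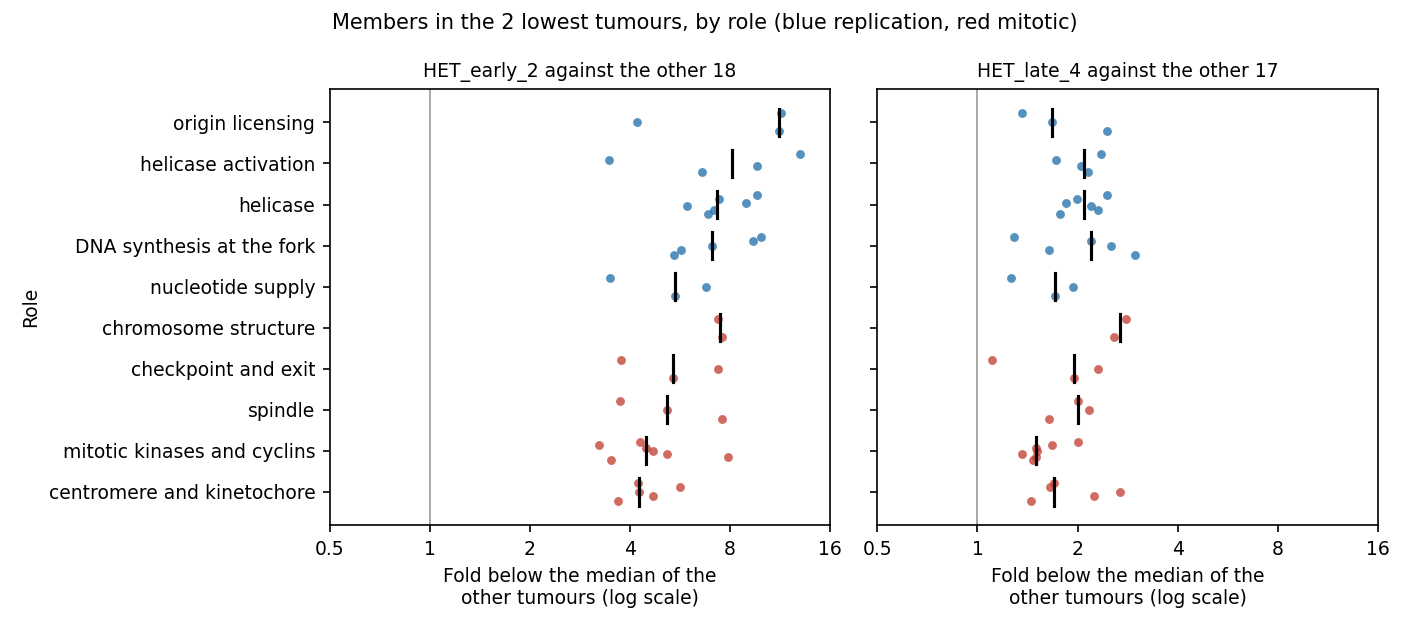
Fold by which each member lay below the median of the other tumours (log scale), in HET_early_2 (left) and HET_late_4 (right), by role. Points are genes, black lines are role medians, and in HET_early_2 the medians run from 4.27-fold (centromere and kinetochore) to 11.2-fold (origin licensing).

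Over all 19 tumours the median coefficient of variation was 30.2% for the members and 33.1% for the 9454 genes. In the 17 tumours without HET_early_2 and HET_late_4 it was 18.4%, against 28.8%. The tumours left out held the lowest values of most members, so leaving them out lowers the spread of the members in particular. In the 17, the highest tumour was a median of 1.96 times the lowest, against 3.06 times for the 9454 genes. Mcm6 varied least of the 41 (9.19%) and Orc1 most (33.04%). As log2 deviations from the gene medians, class medians of these tumours ran from -0.26 to 0.23 for replication genes and from -0.35 to 0.28 for mitotic genes. The classes did not always move together: WT_early_2 was at 0.23 for replication and -0.13 for mitotic genes, a gap of 0.35 that was the widest of the 17. HET_early_2 had a gap of -0.57 and HET_late_4 of -0.26, with replication genes lower.

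Correlations across tumours are given as a description. They all come from the same libraries and share their depth and tissue makeup. Over all 19 tumours the median Pearson correlation of log2 values was 0.90 within the replication class, 0.87 within the mitotic class and 0.87 between the classes. Without HET_early_2 (n = 18) these were 0.58, 0.57 and 0.53, and without HET_late_4 as well (n = 17) they were 0.32, 0.40 and 0.25. In those 17 tumours 18 of 21 replication genes and 15 of 20 mitotic genes followed the mean of the rest of their own class more closely than the mean of the other class. Median correlations with Myc were 0.71 for replication and 0.68 for mitotic genes in all 19 tumours and 0.32 and 0.21 in the 17.

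The first comparison asked whether deletion of 1 Bptf allele went with other levels of these genes. Averaged over onset, heterozygous tumours had lower means for 21 of 21 replication and 20 of 20 mitotic genes (44.2% of all genes tested lay below 0), but 0 of 41 passed limma's test at a Benjamini-Hochberg adjusted p of 0.05 (background 0%). The median log2 difference, HET minus WT, was -0.58 for replication and -0.41 for mitotic genes, against 0.06 for all genes. At an unadjusted p of 0.05, 16 members were lower (background 4.81%). Without HET_early_2 the medians were -0.24 and -0.16, 19 of 21 replication and 18 of 20 mitotic genes lay below 0 (background 45.9%) and 11 members were lower at that p (background 2.82%), with 0 of 41 past limma's adjusted p (background 0%). These values still include HET_late_4, the lowest of the remaining tumours for 33 of the 41 members. Leaving HET_late_4 out moved the medians of the late genotype difference from -0.31 and -0.18 to -0.10 and 0.00. On the recovered reads edgeR called 0 of 41 with all tumours and without HET_early_2 (background 0% in both), and DESeq2 called 0 of 41 with all tumours (background 0.187%) and without HET_early_2 (background 0.0542%). In the authors' deposited table, 0 of 41 members had an adjusted p under 0.05 in each of its 5 comparisons. The share of all genes under that p in the authors' deposited table was 0.338% for genotype, 2.09% for genotype in early and 0.109% in late tumours, 1.94% for onset in wild-type and 4.32% in heterozygous tumours. Its median log2 fold changes for genotype were -0.40 and -0.30.

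Among replication roles, the genotype difference had medians of -0.72 for origin licensing, -0.64 for the helicase, -0.60 for helicase activation, -0.58 for fork synthesis and -0.39 for nucleotide supply with all 19 tumours, and every gene of these roles was lower. Without HET_early_2 they were -0.31 (3 of 3 lower), -0.27 (6 of 6), -0.26 (3 of 4), -0.21 (5 of 5) and -0.08 (2 of 3), in the same order. Mitotic roles ran from -0.72 (spindle) to -0.36 (kinases and cyclins) with all tumours, and without HET_early_2 from -0.37 for the spindle (3 of 3 lower) to -0.11 for kinases and cyclins (6 of 7).

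Cdc6 (GRCm38 chr11:98907801-98923940, plus strand) had values of 726, 807 and 934 (lowest, median, highest) in WT_early and 713, 644, 590.4, 703 and 831 in WT_late. The HET_early tumours read 656, 61.1, 513 and 642, and the HET_late tumours 665, 523, 603 and 286. All HET_early values lay below all WT_early values, whereas the late groups overlapped. The difference was -0.88 ± 0.34 (SE, limma adjusted p 0.493), with an exact two-sided permutation p of 0.000291, unadjusted. That test permuted genotype over all tumours without regard to onset, on the difference of the pooled means, which was -0.89. Without HET_early_2 it was -0.47 ± 0.15 (limma adjusted p 0.818, exact permutation p 0.000754).

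Mcm4 (GRCm38 chr16:15623897-15637400, minus strand), a helicase subunit, read 2384, 2889 and 3182 in WT_early (lowest, median, highest) and 2474, 2759, 2628, 2769 and 4059 in WT_late. Values were 2544, 444, 2096 and 2583 in HET_early and 2109, 1638, 2633 and 1203 in HET_late. Inside the WT range lay 2 HET_early values and 1 HET_late value, and the other HET values were below it. The difference was -0.76 ± 0.26 (limma adjusted p 0.493, exact permutation p 0.00037) and, without HET_early_2, -0.46 ± 0.14 (limma adjusted p 0.818, exact permutation p 0.00088).

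Cenpf (GRCm38 chr1:189640606-189688086, minus strand) and Cenpe (GRCm38 chr3:135212537-135273611, plus strand), kinetochore proteins with long transcripts of 11130 and 7910 bases, were the mitotic members with the smallest p. Cenpf read 1192, 1667 and 1769 in WT_early (lowest, median, highest) and 1483, 304, 904 and 1633 in HET_early. Late tumours read 987, 1092, 1522, 1336 and 1263 (WT_late) and 1022, 565, 1141 and 497 (HET_late). The lowest values were those of HET_early_2, HET_late_4 and HET_late_2, and the groups overlapped. Its difference was -0.75 ± 0.26 with all tumours and -0.49 ± 0.18 without HET_early_2 (limma adjusted p 0.493 and 0.818). Cenpe differed by -0.67 ± 0.25 and -0.40 ± 0.15 (limma adjusted p 0.493 and 0.818). With a curve of level on transcript length removed from each library, without HET_early_2, the differences were -0.22 for Cenpf and -0.19 for Cenpe, a setting added after the data were seen.

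Of the common proliferation markers, Mki67, the gene of the Ki-67 antigen, read 8133, 12343 and 14066 in WT_early (lowest, median, highest) and 10346, 1277, 8068 and 10278 in HET_early. Late tumours read 7476, 7369, 9078, 10059 and 10710.3 (WT_late) and 8601, 6427, 9219 and 3909 (HET_late). HET_early_2, HET_late_4 and HET_late_2 lay below the WT range, and the other HET tumours within it. Its difference was -0.72 ± 0.31 with all tumours and -0.35 ± 0.17 without HET_early_2 (limma adjusted p 0.493 and 0.818). Mcm2, a helicase subunit, differed by -0.58 ± 0.30 and -0.23 ± 0.15 (limma adjusted p 0.499 and 0.818). Pcna differed by -0.50 ± 0.26 and -0.20 ± 0.15, and Top2a by -0.67 ± 0.31 and -0.31 ± 0.17. Cdc6, Mcm4, Cenpf and Cenpe were named for having the smallest p of their class in this comparison, and members of each later comparison were named in the same way, so these p are a description. The smallest p this design allows is 1.32e-05. No member had all HET values below all WT values (0 of 41, background 0.00502%).

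**Figure D3:**
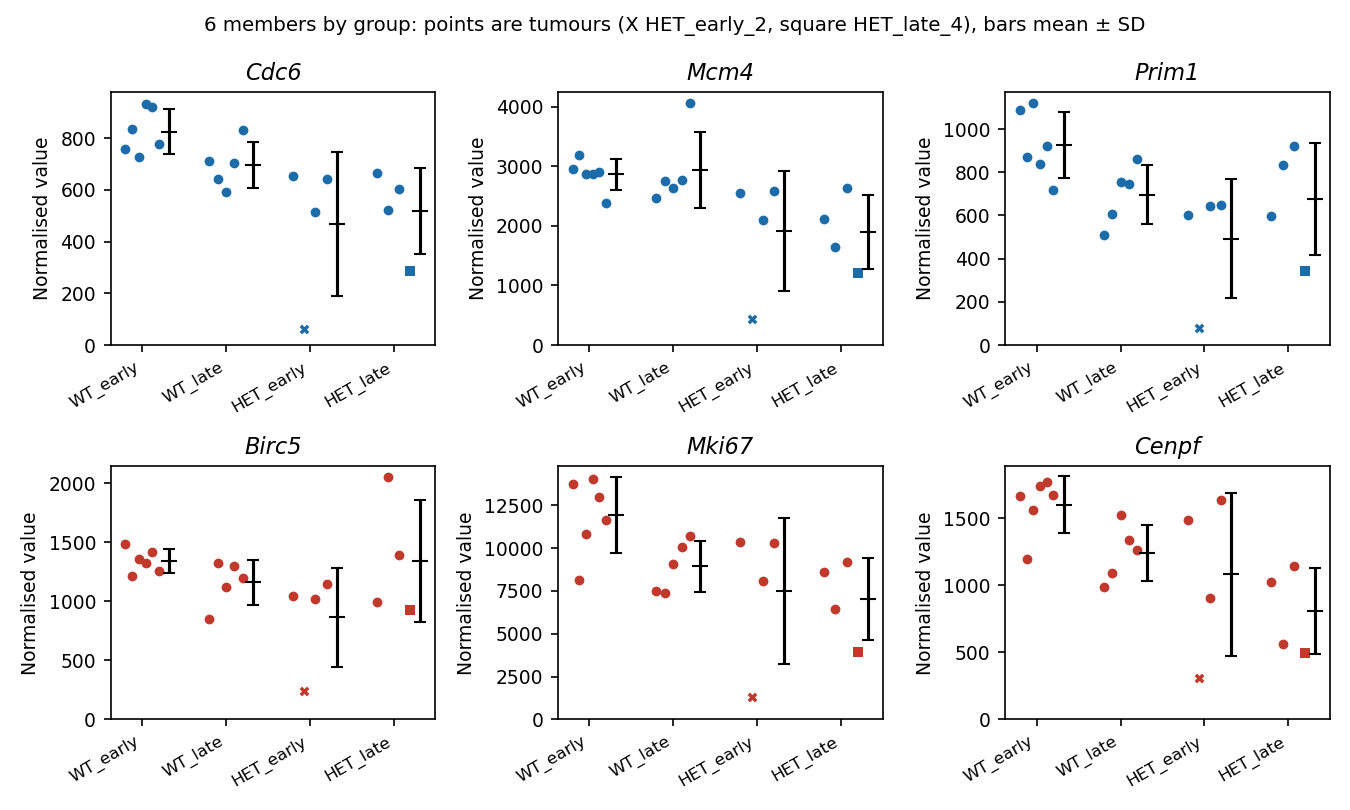
Normalised values of 6 members in every tumour by group, with the mean ± SD of each group at its right (n = 6, 5, 4 and 4). HET_early_2 (X) is the lowest tumour in each panel, and HET_late_4 (square) is the next lowest for Cdc6, Mcm4, Prim1, Mki67 and Cenpf but not for Birc5.

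Markers of B cells and of other cells also differed in mean between the genotypes. Sums of the B cell markers spanned 36893 to 55437 (WT_early), 1814 to 53439.8 (HET_early), 21286 to 52785 (WT_late) and 21789 to 41584 (HET_late). Sums of the T cell markers spanned 289 to 2793 (WT_early), 1695 to 4747 (HET_early), 2106 to 9395 (WT_late) and 3755 to 9239 (HET_late). Without HET_early_2, 16 of 16 T cell and 16 of 16 macrophage markers had higher HET means (median differences 1.51 and 0.43). So did 13 of 13 endothelial (0.26) and 10 of 14 stromal markers (0.32). B cell markers were lower for 12 of 15 (-0.34), where 45.9% of all genes lay below 0. Of these lists 0 genes passed limma's adjusted p (background 0%). In early tumours without HET_early_2, HET means were higher for 16 of 16 T cell (1.16), 9 of 16 macrophage (0.08) and 9 of 15 B cell markers (0.15). In late tumours they were higher for 12 of 16 (1.63), 14 of 16 (0.99) and 4 of 15 (-0.56). For endothelial markers they were higher for 13 of 13 in early (0.46) and 6 of 13 in late tumours (-0.00054). For stromal markers they were higher for 5 of 14 in early (-0.21) and 13 of 14 in late tumours (0.59). With a score of T cell, macrophage, stromal and endothelial genes as a covariate, the median genotype difference was 0.00 for both classes, with 10 of 21 replication and 10 of 20 mitotic genes below 0 (background 52.7%). With a B cell marker score as the covariate it was -0.16 and -0.09. HET_early_2 had the most extreme value of both scores.

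In early tumours, 21 of 21 replication and 20 of 20 mitotic genes had lower HET means (background 44.5%), and 0 of 41 passed limma's adjusted p (background 0%). Median differences were -0.85 for replication and -0.63 for mitotic genes with HET_early_2. Without it they were -0.19 and -0.14, with 17 of 21 replication and 18 of 20 mitotic genes below 0 (background 47.6%) and 0 of 41 past the adjusted p (background 0%). At an unadjusted p of 0.05, 19 members were lower with that tumour (background 4.12%) and 2, Prim1 and Cdc6, without it (background 1.41%). Cdc6, Prim1 and Birc5 had all HET_early values below all WT_early values, with HET_early_2 (background 1.3%) and without it (background 1.89%).

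Prim1 (GRCm38 chr10:128015168-128030037, plus strand), the catalytic subunit of primase, read 717, 896 and 1118 in WT_early (lowest, median, highest) and 601, 79.8, 642 and 647 in HET_early. The groups did not overlap, and HET_early_2 stood far below the other HET_early tumours. The difference was -1.28 ± 0.45 (limma adjusted p 0.402, exact permutation p 0.00476) and -0.54 ± 0.25 without HET_early_2 (limma adjusted p 0.999, exact permutation p 0.0238).

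Birc5 (GRCm38 chr11:117849251-117855743, plus strand), or survivin, a subunit of the chromosomal passenger complex, read 1214, 1341 and 1486 in WT_early (lowest, median, highest) and 1049, 239, 1024 and 1144 in HET_early. The groups did not overlap. It differed by -0.86 ± 0.34 and, without HET_early_2, by -0.32 ± 0.21 (limma adjusted p 0.402 and 0.999, exact permutation p 0.00476 and 0.0119). Cdc6 differed by -1.27 ± 0.47 and -0.45 ± 0.21 (limma adjusted p 0.402 and 0.999). The smallest exact p that 4 against 6 tumours allow is 0.00476, or 0.0119 without HET_early_2.

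Kif11, the motor that pushes spindle poles apart, differed by -1.06 ± 0.41, or -0.37 ± 0.21 without HET_early_2 (limma adjusted p 0.402 and 0.999). Mcm2 differed by -0.77 ± 0.42 and -0.06 ± 0.22 (limma adjusted p 0.457 and 0.999). Its HET_early values were 2489, 441, 2723 and 4706, and the last exceeded every WT_early value. By role, the median difference moved without HET_early_2 from -1.12 to -0.36 for licensing, from -0.99 to -0.31 for helicase activation, from -0.85 to -0.19 for fork synthesis, from -0.84 to -0.11 for the helicase, from -0.57 to 0.01 for nucleotide supply and from -0.64 to -0.15 for mitotic kinases and cyclins.

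In late tumours, 19 of 21 replication and 16 of 20 mitotic genes had lower HET means (background 48.4%) and 0 of 41 passed limma's adjusted p (background 0%). The median differences were -0.31 and -0.18, and without HET_late_4 they were -0.10 and 0.00. At an unadjusted p of 0.05, 1 member, Kif20a, was lower (background 3.46%), or 7 members when HET_early_2 was left out of the shared estimate of the spread (background 5.21%). With the score of non-tumour genes as a covariate the medians were 0.12 and 0.13. That fit used 1 slope over all 19 tumours, and HET_early_2 had the highest score (1.45, next 0.59 in HET_late_2). No covariate fit without HET_early_2 was run. All 6 helicase genes had lower HET_late means (-0.67 to -0.29), while mitotic kinases and cyclins lay on both sides of 0 (-0.18 to 0.15). No member had all HET_late values below all WT_late values (0 of 41, background 0.532%).

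Mcm4 differed by -0.67 ± 0.38 in late tumours, from the values given above (limma adjusted p 0.796, exact permutation p 0.0238). Kif20a, a kinesin of cytokinesis, read 876, 915, 1529, 1133 and 1551 in WT_late and 942, 377, 875 and 522 in HET_late. HET_late_1 lay inside the WT_late range and the other three at or below its lower end. The difference was -0.88 ± 0.41 (limma adjusted p 0.796, exact permutation p 0.0476). Cenpe read 948, 1381, 1534, 1119 and 1483 in WT_late and 964, 621, 1041 and 593 in HET_late, with 2 HET_late tumours below the WT_late range. Its difference was -0.71 ± 0.36 (limma adjusted p 0.796, exact permutation p 0.0397). Fen1 differed by -0.59 ± 0.45 (limma adjusted p 0.843), on late values of 19.6 to 72.5. The smallest exact p here is 0.00794.

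Transcript length moved with these values. Across 8943 genes, the deviation from the gene median was correlated with transcript length (Spearman) within each library. The correlation was -0.63 in HET_late_2, -0.38 in HET_late_4, -0.25 in HET_late_3 and -0.01 in HET_late_1. HET_early_1 to HET_early_4 had 0.35, 0.19, -0.08 and 0.39. Wild-type tumours showed it too, with -0.28 in WT_late_4, -0.22 in WT_late_2, 0.26 in WT_early_4 and 0.26 in WT_early_5. The other wild-type tumours ran from -0.0024 (WT_early_1) to 0.11 (WT_early_2). In HET_late_2 it was -0.70 across the 41 members, where the 10 longest (4365 to 11130 bases) had a median deviation of -0.51 and the 10 shortest (947 to 1950 bases) one of 0.49. The longest include Cenpf, Mki67, Cenpe, Pola1 and Top2a, and the shortest Birc5, Gins1, Rfc4, Cenpa and Pcna. With the length curve removed, the late genotype difference was -0.33 for Cenpe and -0.76 for Kif20a, and the class medians were -0.29 and -0.18. For onset averaged over genotype without HET_early_2, the length curve removed left 21 of 21 replication and 20 of 20 mitotic genes below 0 (background 53.6%), with medians of -0.24 and -0.19, against -0.035 for all 14682 genes tested. Of the 41, 0 passed limma's adjusted p (background 0%), and 7 replication and 4 mitotic genes were lower at an unadjusted p of 0.05 (background 9.97%).

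**Figure D4:**
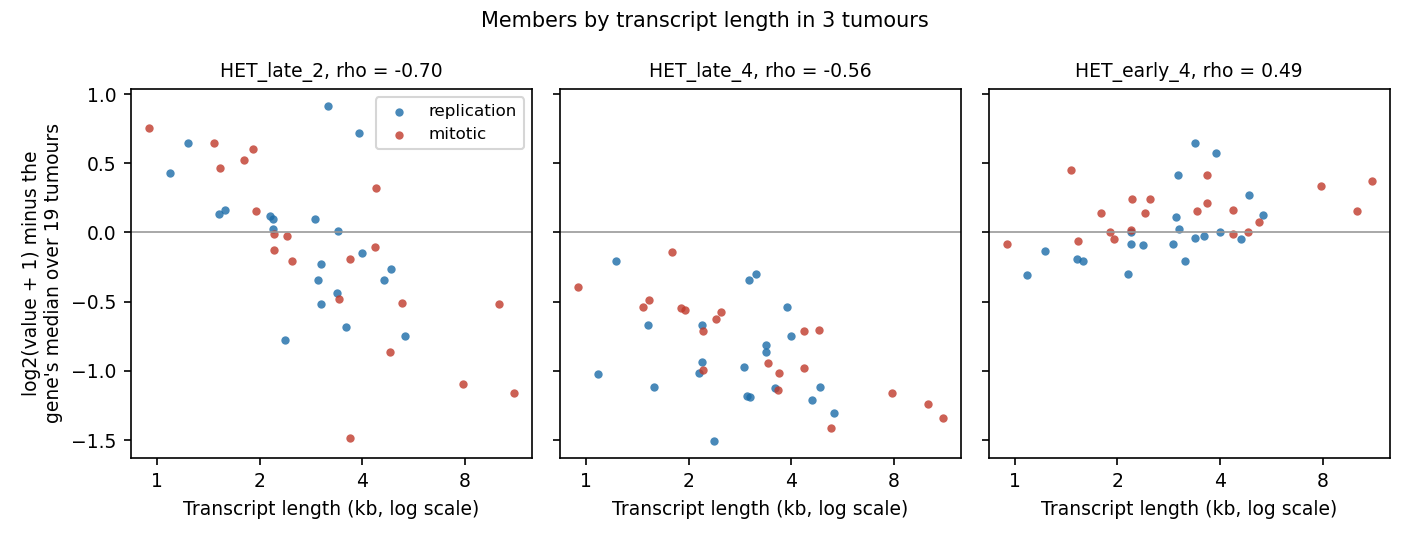
Deviation of each member from its median over 19 tumours (log2 scale) against the length of its principal transcript (log scale) in 3 tumours, replication genes in blue and mitotic genes in red. Spearman's rho over the 41 members is -0.70 in HET_late_2, -0.56 in HET_late_4 and 0.49 in HET_early_4, and in HET_late_2 the longest members lie lowest.

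The second comparison asked whether the genes differed with onset. Averaged over genotype, 0 of 41 members passed limma's adjusted p (background 0.437%), and 0 were lower at an unadjusted p of 0.05 (background 10.2%). The sign of the medians turned with HET_early_2: late minus early was 0.15 for replication and 0.10 for mitotic genes with it, and -0.19 and -0.15 without it. With it 3 of 21 replication and 6 of 20 mitotic genes lay below 0 (background 56%), and without it 19 of 21 replication and 15 of 20 mitotic (background 54.1%). Without it, 13 members were lower at an unadjusted p of 0.05 (background 11.7%), and again 0 of 41 passed limma's adjusted p (background 0.859%). Without HET_late_4 as well, the medians were -0.06 and -0.05. No member had all late values below all early values, with HET_early_2 (0 of 41, background 0.0251%) or without it (0 of 41, background 0.0401%).

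The smallest adjusted p without HET_early_2 were those of Cenpf (-0.57 ± 0.18, limma adjusted p 0.0915), the checkpoint kinase gene Bub1 (-0.41 ± 0.13, 0.099) and Orc1 (-0.56 ± 0.19, 0.116). DESeq2 on the recovered reads without HET_early_2 called these 3 members, all lower in late tumours, where it called 13.8% of the genes it tested, while edgeR without HET_early_2 called 0 of 41 (background 4.78%). These settings were added after the data were seen. By role, also without HET_early_2, chromosome structure (-0.41), checkpoint genes (-0.35) and the spindle (-0.32) had the lowest medians, and mitotic kinases and cyclins stood at 0.01 with 3 of 7 below 0. With all 19 tumours these were -0.05, 0.02, 0.03 and 0.28.

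Marker means of B cells and of other cells differed with onset too. Without HET_early_2, late means were higher for 15 of 16 T cell markers (median difference 0.61) and 13 of 16 macrophage markers (0.44). They were lower for 11 of 13 endothelial (-0.56), 8 of 8 cartilage and muscle (-1.24), 5 of 5 salivary gland (-1.42), 9 of 14 stromal (-0.22) and 10 of 15 B cell markers (-0.14), where 54.1% of all genes lay below 0. With all 19 tumours, 14 of 16 T cell markers were higher (0.80), and 9 of 9 cartilage and muscle (-2.74), 11 of 13 endothelial (-0.71) and 11 of 14 stromal markers (-0.84) were lower. With the non-tumour score as a covariate in all 19 tumours the onset medians were 0.09 and 0.05. The part of these markers in the onset differences without HET_early_2 was not tested.

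The members with the smallest p in all 19 tumours were the clamp loader gene Rfc4 (0.45 ± 0.33), Cdc45 (0.32 ± 0.27), the spindle pole kinase gene Aurka (0.33 ± 0.22) and Aurkb, the kinase of the passenger complex (0.37 ± 0.29), with 0 of these 4 past limma's adjusted p. Without HET_early_2 they were 0.05, 0.02, 0.11 and 0.02. Rfc4 read 471, 601 and 742 in WT_early (lowest, median, highest) and 427, 55.8, 699 and 478 in HET_early. Late tumours read 523, 524, 484, 665 and 676 (WT_late) and 457, 819.5, 722 and 453 (HET_late). Early and late tumours overlapped. Of the proliferation markers, Mki67 went from -0.10 ± 0.31 to -0.46 ± 0.17 without HET_early_2 (limma adjusted p 0.896 and 0.134). An exact permutation of the onset labels over all tumours, without regard to genotype, gave p 0.717 and 0.00913 for it, on differences of the pooled means of -0.18 and -0.49. Top2a went from -0.01 ± 0.31 to -0.37 ± 0.17 (limma adjusted p 0.988 and 0.221).

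Within wild-type tumours, where HET_early_2 enters only through the shared estimate of the spread, 16 of 21 replication and 19 of 20 mitotic genes had lower late means (background 51.6%, or 51.7% without HET_early_2). Medians were -0.10 and -0.12, 0 of 41 passed limma's adjusted p (background 0%) and 0 were lower at an unadjusted p of 0.05 (background 2.44%). Without HET_early_2, 1 member, Orc1, was lower at that p (background 3.7%). Orc1 read 156, 226 and 327 in WT_early (lowest, median, highest) and 90.4, 135, 198, 189.7 and 172 in WT_late, and differed by -0.51 ± 0.49 (limma adjusted p 0.975, exact permutation p 0.0758). Prim1 differed by -0.42 ± 0.42 (limma adjusted p 0.975, exact permutation p 0.0303), with WT_late values of 512, 606, 753, 746 and 860.3. Cenpf differed by -0.37 ± 0.33 and Mki67 by -0.41 ± 0.41 (exact permutation p 0.0325 and 0.039). Orc1, Prim1, Cenpf and Mki67 were named for having the smallest p of their class in this comparison. No member had all WT_late values below all WT_early values (0 of 41, background 0.562%).

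Within heterozygous tumours the direction turned with HET_early_2. Late minus early was 0.45 for replication and 0.34 for mitotic genes with it (1 of 21 replication and 3 of 20 mitotic genes below 0, background 56.1%), and -0.28 and -0.19 without it (16 of 21 replication and 15 of 20 mitotic, background 53.9%). By limma's adjusted p 0 of 41 passed with all tumours (background 0%) and 0 of 41 without HET_early_2 (background 0%). At an unadjusted p of 0.05, 0 members were lower with it (background 11.1%) and 1 differed in either direction (background 19.5%), Birc5, which was higher. Without it 6 were lower (background 10.5%). Rfc4 (0.98 ± 0.51), Prim1 (0.74 ± 0.49), Birc5 (0.79 ± 0.37) and Aurka (0.65 ± 0.33) had the smallest p with all tumours. Without HET_early_2 these were 0.18, 0.00, 0.25 and 0.22.

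Mcm7, Orc1, Bub1 and Kif20a had all HET_late values below those of the 3 remaining HET_early tumours (4 of 41, background 8.68%), and were named after their values were seen. Mcm7, a helicase subunit, read 4014, 4463 and 4331 in those 3 tumours and 2794, 3156, 3523 and 1768 in HET_late, a difference of -0.65 ± 0.23 (limma adjusted p 0.153). Kif20a read 998, 1333 and 1227 against 942, 377, 875 and 522 (-0.89 ± 0.28, limma adjusted p 0.126). Without HET_late_4 as well, the class medians were -0.03 and -0.04.

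**Figure D5:**
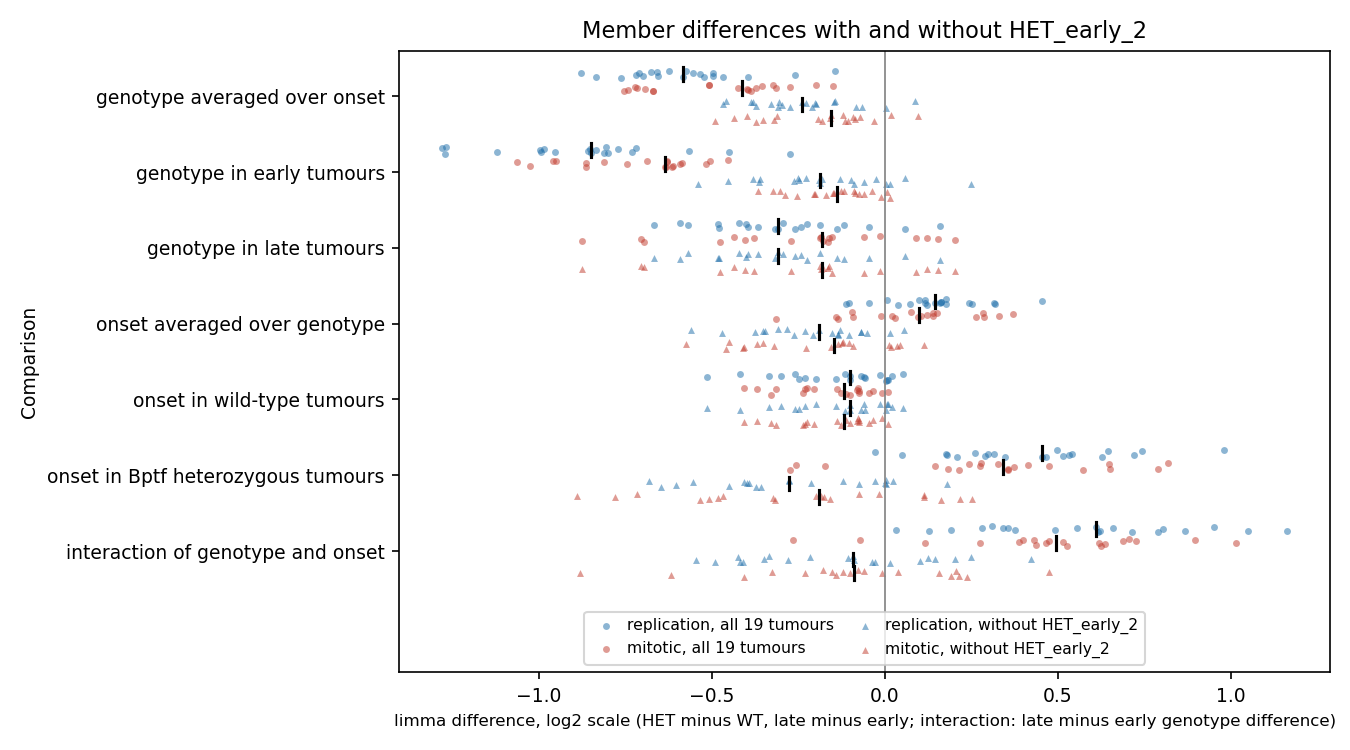
Limma differences (log2 scale) of each member in the 7 comparisons, with all 19 tumours and without HET_early_2, replication in blue and mitotic in red, with class medians as lines. Onset medians move from 0.15 and 0.10 to -0.19 and -0.15 without HET_early_2, and genotype medians from -0.58 and -0.41 to -0.24 and -0.16.

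The interaction, the late genotype difference minus the early one, had medians of 0.61 and 0.49 with all tumours (0 of 21 replication and 2 of 20 mitotic genes below 0, background 53.9%) and -0.09 and -0.09 without HET_early_2 (14 of 21 replication and 13 of 20 mitotic, background 51.4%). By limma's adjusted p 0 of 41 passed with all tumours (background 0%) and 0 of 41 without HET_early_2 (background 0%). At an unadjusted p of 0.05, 0 were lower with all tumours (background 4.41%) and 1, Kif20a, without HET_early_2 (background 4%). Prim1 had the highest value among replication genes, 1.16 ± 0.64, and 0.42 ± 0.35 without HET_early_2 (limma adjusted p 0.743 and 0.843). Birc5 had the highest among mitotic genes, 1.01 ± 0.49 and 0.47 ± 0.29 (limma adjusted p 0.719 and 0.797).

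Other genes of the same pathways were taken from lists of 44 replication and 61 mitotic genes that are not members. For genotype without HET_early_2, 42 of 44 and 52 of 61 lay below 0, with medians of -0.20 and -0.24 (45.9% of all genes tested lay below 0), and 0 of either list passed limma's adjusted p, as did 0% of all genes. For onset without HET_early_2, 36 of 44 and 49 of 61 lay below 0 (medians -0.19 and -0.25, background 54.1%), and 1 gene of each list was lower in late tumours past the adjusted p, which 0.859% of all genes passed in either direction. These were Uhrf1, which keeps DNA methylation through replication (-0.83 ± 0.19, limma adjusted p 0.0448), and Cit, a kinase of cytokinesis (-0.97 ± 0.21, limma adjusted p 0.0426). Among 37 cell cycle regulators 1 passed, E2f7, a repressor of the E2F family (-1.05 ± 0.24, limma adjusted p 0.0497). With the transcript length curve removed, also without HET_early_2, 0 of the 14682 genes tested passed for onset, so these calls did not hold there. With all 19 tumours 0 genes of the 3 lists were called for onset (background 0.437%). In HET_early_2 the median fold below the other tumours was 4.66 for the replication list and 4.73 for the mitotic list. Pttg1, the securin gene, was the 1 gene of these 2 lists that stood above the median of the other tumours there, and it was named after its value was seen.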

How the data were processed

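RNA from 19 mouse lymphomas was measured, each library from a separate tumour. The authors' deposited values are a normalised signal: gene counts divided by 1 factor per library, so that 100% of values came out as whole reads within 0.01. TopHat2 2.1.1 on the GRCm38 (mm10) build, Cufflinks 2.2.1 with Cuffdiff and Cuffnorm, and FastQC 0.11.5 are named in the submitters' processing notes. The factors matched the size factors that DESeq2 computed from the recovered reads, such as 1.15 in WT_early_1 and 0.752 in HET_early_2 by both. Which tool made the table, its annotation and its strand setting are not stated in the sources used here. The authors' deposited table also gives log2 fold changes and adjusted p-values. The labels' protocols name 10 PCR cycles, or 8 for a later kit version, without saying which libraries had which, so no within-batch values could be given.

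Values were tested on the log2(value + 1) scale with limma 3.58.1 (R 4.3.3) in 1 fit of the 4 groups, over the 19927 genes that reached 1 in 4 or more libraries (19555 without HET_early_2), with Benjamini-Hochberg adjustment over all of them. All 41 members passed that filter. Exact two-sided permutation tests (SciPy 1.17.1) of single members are unadjusted and compare pooled group means, without the other factor. Alternatives used edgeR 4.0.16 and DESeq2 1.42.0 on the recovered reads, other scalings and covariates, and left out each library. Scripts were tested on simulated data. For onset averaged over genotype, limma recovered 32 of 67 simulated 2-fold changes (47.8%) and 67 of 67 simulated 4-fold changes. A member that was not called may therefore still differ. Python 3.11.15, NumPy 2.4.6 and pandas 2.3.3 were used.

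Members and gene lists were chosen with earlier results of these data known. Named genes were Mcm2, Pcna, Mki67 and Top2a, the 2 replication and 2 mitotic members with the smallest p in each comparison, Bptf, Myc and up to 3 genes with the smallest p of each further list. Samples were grouped by labelled genotype and onset. The labels do not say whether tumours shared a litter, and p-values measure the spread between these tumours. Read counts cover counting error only.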

Additional observations from a re-analysis of the deposited data

Results flagged for a closer look

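Each of 21 items (members named in a comparison, and the class medians by tumour) was examined in each of the 4 groups, and in 14 of 84 item and group pairs the highest or lowest tumour stood apart from the rest of its group by Dixon's criterion. Chance flags about 1 in 20 groups, and the items are correlated. In HET_early_2, 7 of the 14 arose. Its values were 929 for Pcna (nearest HET_early tumour 4552), 79.8 for Prim1 (nearest 601), 239 for Birc5 (nearest 1024), 182 for Aurka (nearest 564) and 181 for Aurkb (nearest 1203). Its class medians were -2.80 for replication (nearest -0.10) and -2.22 for mitotic genes (nearest -0.19), as log2 deviations. In HET_late_4, Aurkb stood at 962 (nearest HET_late tumour 1536).

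WT_early_2 was the highest of its group for Mcm2 at 4436 (nearest 3341) and the lowest for Top2a at 6011 (nearest 9080) and for Cenpf at 1192 (nearest 1562). Mcm4 was highest among WT_late tumours in WT_late_5 at 4059 (nearest 2769). The replication class median was lowest among WT_early tumours in WT_early_6 at -0.056 (nearest 0.13). The replication minus mitotic gap was lowest among WT_late tumours in WT_late_3 at -0.13 (nearest 0.10).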

How the results depend on the processing

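No paired analysis was possible because the replicate numbers follow accession order and pair no tumours. The test called 0 of 41 members in every comparison and setting run except 1: DESeq2 without HET_early_2, added after the data were seen, called 3 for onset averaged over genotype. Leaving out each tumour in turn, the medians of the replication and mitotic classes ran from -0.76 to -0.24 and from -0.53 to -0.16 for genotype, from -1.10 to -0.19 and from -0.90 to -0.14 for genotype in early tumours, and from -0.39 to -0.10 and from -0.31 to 0.00 for genotype in late tumours. For onset they ran from -0.19 to 0.27 and from -0.15 to 0.21, for onset in wild-type tumours from -0.17 to -0.04 and from -0.19 to -0.03, for onset in heterozygous tumours from -0.28 to 0.66 and from -0.19 to 0.61, and for the interaction from -0.092 to 0.80 and from -0.090 to 0.74.

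The early genotype median of replication genes was -0.19 without HET_early_2, -0.19 without HET_early_2 and HET_late_4, -0.19 with the non-tumour score as a covariate, -0.19 by DESeq2 without HET_early_2 and -0.13 with the transcript length curve removed without HET_early_2. For onset, Cdc45 was at -0.0060 with array weights, and with the length curve removed without HET_early_2 the values were -0.24 for Rfc4, -0.10 for Cdc45, -0.041 for Aurka and -0.13 for Aurkb. For onset in heterozygous tumours, array weights gave -0.26 for replication, -0.23 for mitotic genes and -0.025 for Prim1. The length curve removed without HET_early_2 gave -0.33, -0.24, -0.27 for Rfc4, -0.33 for Prim1, -0.31 for Birc5 and -0.022 for Aurka. Without HET_early_2, edgeR gave -0.22 and DESeq2 -0.21 for replication genes there. For the interaction, array weights gave -0.091 and -0.068, the length curve removed without HET_early_2 gave -0.15 for replication genes and -0.074 for Rfc4, and without HET_early_2 edgeR gave -0.063 and DESeq2 -0.086. Most of these settings leave out HET_early_2 or give it less weight, and the cause of each change was not tested. The groups hold 4 to 6 tumours, which limits the precision of every comparison, and Fen1 rests on few reads.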
